A study of Mus musculus with 10 samples.

Results

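The genes described here are the chemokines and their receptors in mouse liver, 49 of the 16383 genes with a symbol on the array. They were taken by symbol (Ccl, Ccr, Cxcl, Cxcr and Cx3c followed by a number, or by l or r and a number), which gave 52 of the 23438 probes, 32 ligand genes and 17 receptor genes. The rule uses the symbols only. Liver RNA of 6 Tgfbr2+/- mice and 4 wild-type (WT) controls, all on a chow diet, was hybridised to 2-colour arrays, each mouse against 1 pool of liver RNA from 6 WT mice. The series title calls the Tgfbr2+/- mice heterozygous knockouts of the TGF-beta receptor 2 gene, with the allele not described further, and the sample titles name them as males. The WT titles state no sex, and neither age nor strain background is given in the sources used here.

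Chemokines are small secreted proteins that guide leukocytes along a gradient by binding receptors coupled to G proteins. They are classed by the spacing of their first cysteines as CC, CXC and CX3C ligands. In liver, Kupffer cells, sinusoidal endothelium, stellate cells and hepatocytes release inflammatory chemokines that draw in monocytes, neutrophils and lymphocytes, while homeostatic chemokines position resident lymphocytes and stem cells. TGF-beta signalling is known to restrain the production of several inflammatory chemokines by macrophages and stromal cells.

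All values are log2 ratios over the WT pool, and differences are Tgfbr2+/- minus WT, ± SE from limma. The pool cancels each gene's level, so neither the abundance of a chemokine nor whether its probe was above background can be read from these data, and the liver label could not be checked by marker levels. In bulk RNA fewer cells of a type and less RNA per cell cannot be told apart. That the mouse's own RNA is on top of the ratio is probable from the Tgfbr2 values, but no label says so, and if the pool is on top every sign below turns. The libraries labelled WT replicate 1 and Tgfbr2+/- replicate 5 correlated at a Pearson r of -0.32 over all probes, so the direction of these 2 columns is not settled, and results are also given with each turned in sign. The Tgfbr2 probe that separates most libraries by genotype read 0.20 in Tgfbr2+/- replicate 4, within the WT range of -0.29 to 0.64. On it the other 5 heterozygous libraries lay between -1.11 and -0.60. As deposited, Tgfbr2+/- replicate 5 was among these at -0.86, and WT replicate 1 read 0.42. Turned in sign, each would lie outside the range of the other libraries of its genotype on this probe. The other Tgfbr2 probe had means of 0.06 in Tgfbr2+/- and 0.13 in WT libraries, with overlapping groups. The inference on direction, also for these 2 columns, therefore rests on the first probe alone. Nothing in the labels says whether the libraries share a batch.

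The upstream sequences of 3 ligand genes are shown to place the motif letters searched in them. They are Cxcl1, which had the largest fitted difference with the columns as deposited, and the neighbouring interferon-induced ligands Cxcl10 and Cxcl9 beside it. Each is the 250 bases before the transcription start in RefSeq (GRCm38.p6), written 5′ to 3′ on the strand of the gene: chr5:90890995-90891244 on the plus strand for Cxcl1, chr5:92348890-92349139 on the minus strand for Cxcl10 and chr5:92328080-92328329 on the minus strand for Cxcl9. Capitals mark matches on either strand to 3 sets of letters. A pair of forms of the NF-kappaB motif, which share many matches, reads GGGA, any 2 bases and TTCC, or GGGAA, any 3 bases and CC. The core of the interferon-stimulated response element (ISRE) reads GAAA, any 2 bases and GAAA.
Cxcl1: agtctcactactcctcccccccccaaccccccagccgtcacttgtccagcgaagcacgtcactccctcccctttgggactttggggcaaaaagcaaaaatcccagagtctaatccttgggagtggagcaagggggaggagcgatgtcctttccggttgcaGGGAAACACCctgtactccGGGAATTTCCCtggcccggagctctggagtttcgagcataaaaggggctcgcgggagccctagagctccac
Cxcl10: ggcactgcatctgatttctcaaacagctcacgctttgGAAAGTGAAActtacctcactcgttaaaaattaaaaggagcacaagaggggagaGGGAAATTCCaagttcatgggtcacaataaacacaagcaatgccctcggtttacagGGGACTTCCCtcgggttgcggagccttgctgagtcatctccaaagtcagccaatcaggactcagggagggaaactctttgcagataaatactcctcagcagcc
Cxcl9: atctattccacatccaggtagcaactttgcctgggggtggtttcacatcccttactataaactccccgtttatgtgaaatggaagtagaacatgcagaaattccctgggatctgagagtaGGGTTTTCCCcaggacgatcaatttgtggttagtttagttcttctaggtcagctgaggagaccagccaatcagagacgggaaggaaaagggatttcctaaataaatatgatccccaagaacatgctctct

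In the Cxcl1 window the longest capital run starts 71 bases before the start and holds a match on each strand, and Cxcl10 holds 2 NF-kappaB matches and 1 ISRE match. Cxcl9 holds 1 NF-kappaB match and no match to the ISRE letters in this window. Windows were found for 37 of the 49 genes. At least 1 NF-kappaB form was present in 10 of these genes, in 23.3% of their 43 windows against 5.64% of all 32851 windows of the same length. The 10 genes were Cxcl1, Cxcl2, Cxcl9, Cxcl10, Ccl1, Ccl19, Ccl20, Ccr3, Ccr6 and Ccrl2, and their differences ran from -0.11 for Ccl20 to 0.74 for Cxcl1. The ISRE letters were present in 3 genes, Cxcl10, Cxcl14 and Ccl19, that is in 6.98% of the windows against 2.98% of all. A match of letters is a description and not a binding site, and several of these genes are duplicates that share sequence. The genes without a window were Ccl2, Ccl4, Ccl5, Ccl7, Ccl11, Ccl24, Cxcl5, Cxcl11, Cxcl16, Ccr7, Ccr10 and Cxcr5.

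Taken over all 49 genes, the differences between Tgfbr2+/- and WT livers leaned to the positive side and were small. The difference was positive for 36 of the 49, against 52.6% of all genes, and its median was 0.05 against 0.004 over all genes. By limma with Benjamini-Hochberg adjustment over all genes, 0 of the 49 passed an adjusted p of 0.05, and so did 0% of all genes. An unadjusted limma p below 0.05 was found for 4 of the 49, all higher in Tgfbr2+/-, which is 8.16% of the members against 5.54% of all genes in either direction, 2.97% higher and 2.57% lower. They were Ccl4, Cxcl1, Cxcl12 and Cxcl10. That count was 9 without WT replicate 4 and 7 without Tgfbr2+/- replicate 3, where 7.66% and 7.05% of all genes passed, and 3 with the sign of WT replicate 1 or of Tgfbr2+/- replicate 5 turned, where 3.56% and 3.11% of all genes did. Each of these 3 held 1 lower gene, Ccl21a with WT replicate 1 turned and Ccl9 with Tgfbr2+/- replicate 5 turned. The groups did not overlap for 0 of the 49 genes, against 1.08% of all. That count became 3 without WT replicate 4 (Ccl2, Ccl4 and Cxcl12), where 3.92% of all genes did not overlap, 1 without Tgfbr2+/- replicate 3 (Cxcl1) or 5 (Ccl3), 1 without WT replicate 2 (Ccr10) and 1 with Tgfbr2+/- replicate 5 turned (Ccl3). In these last 4 settings 2.32%, 1.69%, 2.72% and 0.635% of all genes did not overlap. With the columns as deposited a difference over 0.3 was seen for 6 members, or 12.2% against 1.23% of all genes. These were Ccl4, Cxcl1, Cxcl12, Cxcl10, Ccl2 and Cxcl14. None lay below -0.3, where 1.31% of all genes did. With WT replicate 1 turned, Cxcl1, Cxcl10 and Ccl4 stayed over 0.3 (0.35, 0.31 and 0.31) and Cxcl13 was at -0.33. With Tgfbr2+/- replicate 5 turned, Cxcl10, Cxcl1, Cxcl14 and Ccl4 did (0.49, 0.47, 0.34 and 0.31). Under both turned none was over 0.3, Cxcl14 being highest at 0.27, and Ccl21a was at -0.302.

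**Figure D1:**
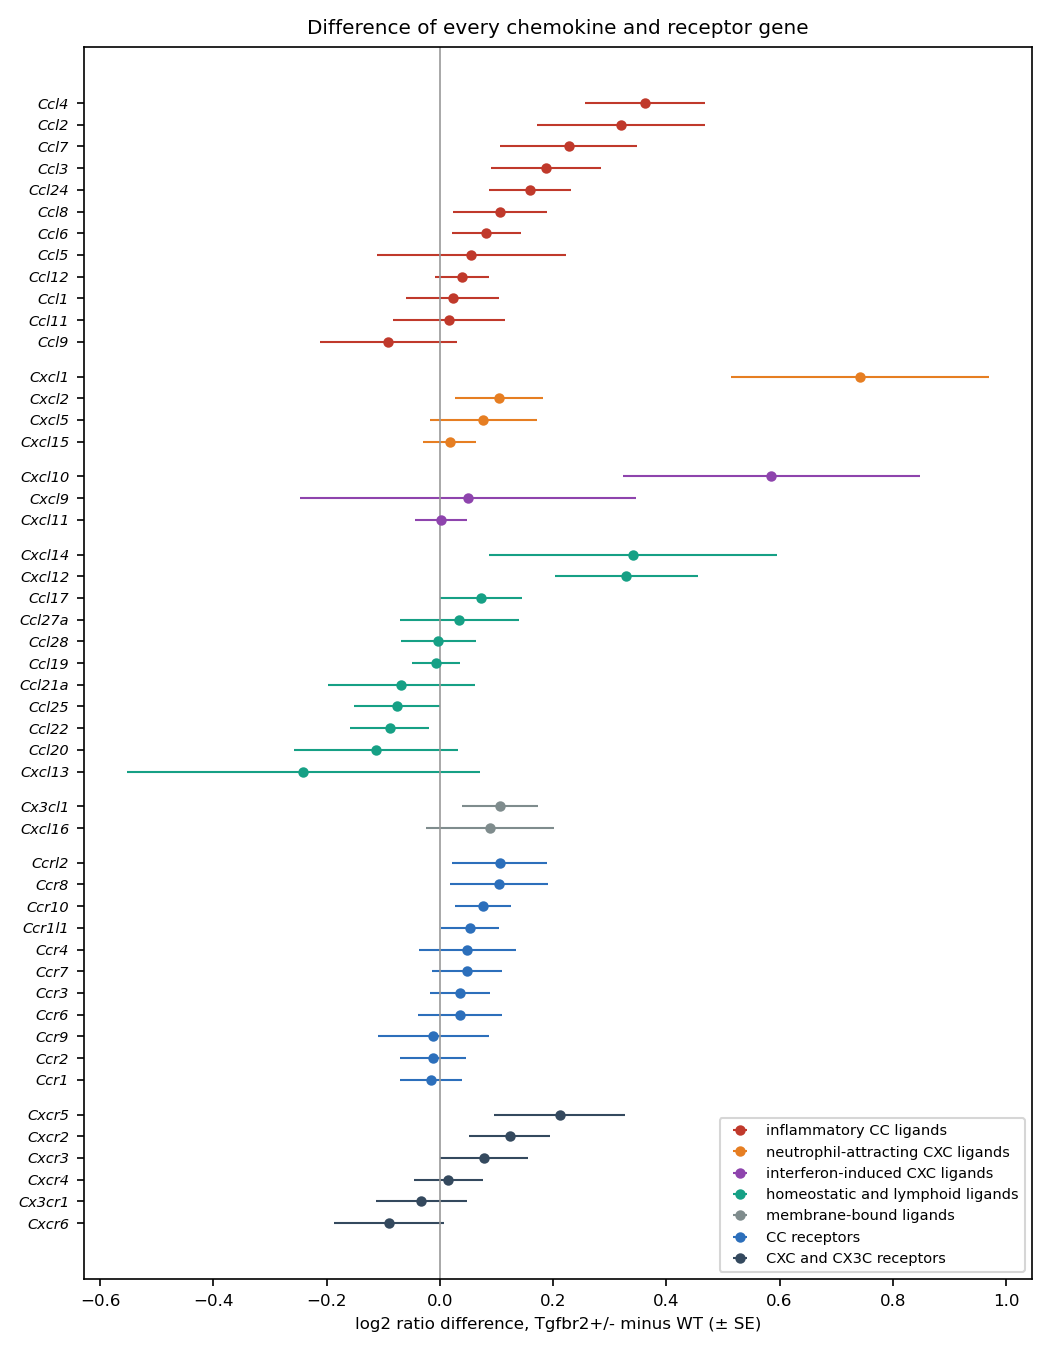
Difference in log2 ratio, Tgfbr2+/- minus WT, of each of the 49 genes, ordered by role, with bars of 1 SE from limma (6 Tgfbr2+/- and 4 WT libraries). With the columns as deposited the largest differences are those of Cxcl1 and Cxcl10 at 0.74 and 0.59, which are 0.083 and 0.21 with both unsettled columns turned, where Ccl4 is at 0.25. The receptors lie between -0.09 and 0.21.

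Inflammatory CC ligands recruit monocytes, macrophages, eosinophils and T cells. Of the 12 measured 11 had a positive difference, with a median of 0.09, the exception being Ccl9, against 52.6% positive among all genes. With WT replicate 1 turned in sign these values were 9 of 12 and 0.06, and with Tgfbr2+/- replicate 5 turned 11 of 12 and 0.10. Roles were assigned after the values were seen, so counts by role only describe these data and are not a test. Ccl4 (MIP-1 beta), which attracts monocytes and T cells, had log2 ratios of 0.08, 0.22, 0.09, 0.37, 0.16 and 0.51 in Tgfbr2+/- replicates 1 to 6, against -0.11, -0.18, -0.34 and 0.14 in WT replicates 1 to 4. All 6 heterozygous libraries lay above the pool and 3 of the 4 WT libraries below it, and WT replicate 4 overlapped the lowest heterozygous ones. The difference was 0.36 ± 0.11, or 1.29-fold (unadjusted limma p = 0.00575, adjusted p = 0.650, exact two-sided permutation p = 0.0238). It stayed under an unadjusted p of 0.05 in 20 of 21 other settings. With WT replicate 1 turned it was 0.31, as it was with Tgfbr2+/- replicate 5 turned.

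Ccl2 (MCP-1), the main attractant of Ccr2-bearing monocytes, had ratios of -0.03, -0.03, -0.02, 0.30, 0.07 and 0.65 in Tgfbr2+/- livers, against -0.35, -0.37, -0.08 and 0.15 in WT livers. Tgfbr2+/- replicates 6 and 4 were the high ones, and replicates 1 to 3 lay at the level of the pool. The difference was 0.32 ± 0.15 (unadjusted limma p = 0.0551, adjusted p = 0.917, exact permutation p = 0.110), or 0.15 with WT replicate 1 turned and 0.30 with Tgfbr2+/- replicate 5 turned. Ccl7 (MCP-3), a neighbour of Ccl2 that shares its receptor, read -0.16, 0.05, 0.03, 0.13, 0.50 and 0.13 in Tgfbr2+/- livers, against -0.34, -0.02, -0.21 and 0.11 in WT livers. Its highest library was Tgfbr2+/- replicate 5, whose direction is not settled, and not replicate 6. Among WT libraries both genes were highest in replicate 4. The Ccl7 difference was 0.23 ± 0.12 (exact permutation p = 0.138), or 0.06 with either unsettled column turned.

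Ccl3 (MIP-1 alpha), encoded next to Ccl4, read 0.13, 0.10, 0.20, 0.06, -0.21 and 0.39 in Tgfbr2+/- livers, against -0.19, -0.09, -0.03 and 0.00 in WT livers. A single heterozygous library, replicate 5, lay below the highest WT library, and the difference was 0.19 ± 0.10 (unadjusted limma p = 0.0791, adjusted p = 0.917, exact permutation p = 0.119). It was 0.09 with WT replicate 1 turned and 0.26 with Tgfbr2+/- replicate 5 turned. Ccl24 (eotaxin-2), an eosinophil attractant made by macrophages, read 0.19, -0.02, 0.02, 0.18, 0.08 and 0.13 in Tgfbr2+/- livers, against -0.23, 0.12, -0.15 and 0.01 in WT livers. The groups overlapped mainly through WT replicate 2, with a difference of 0.16 ± 0.07 (exact permutation p = 0.0667), or 0.04 with WT replicate 1 turned and 0.13 with Tgfbr2+/- replicate 5 turned.

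The remaining CC ligands of this role differed by -0.09 to 0.11. Ccl5 (RANTES), a T cell and NK cell product, had 1 of the wider spreads, with 0.08, -0.11, -0.43, 0.38, -0.03 and 0.56 in Tgfbr2+/- livers, against -0.18, 0.01, 0.08 and 0.17 in WT livers. The heterozygous libraries thus lay on both sides of the WT range, and the difference was 0.06 ± 0.17 (95% interval -0.31 to 0.42). Ccl6 and Ccl9, a pair of macrophage chemokines found in rodents, differed by 0.08 ± 0.06 and -0.09 ± 0.12. With Tgfbr2+/- replicate 5 turned Ccl9 was at -0.18, under an unadjusted limma p of 0.05, as it also was without that library. Ccl8 at 0.11 ± 0.08 and Ccl12 at 0.04 ± 0.05 were each read by 2 probes, whose differences had the same sign.

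**Figure D2:**
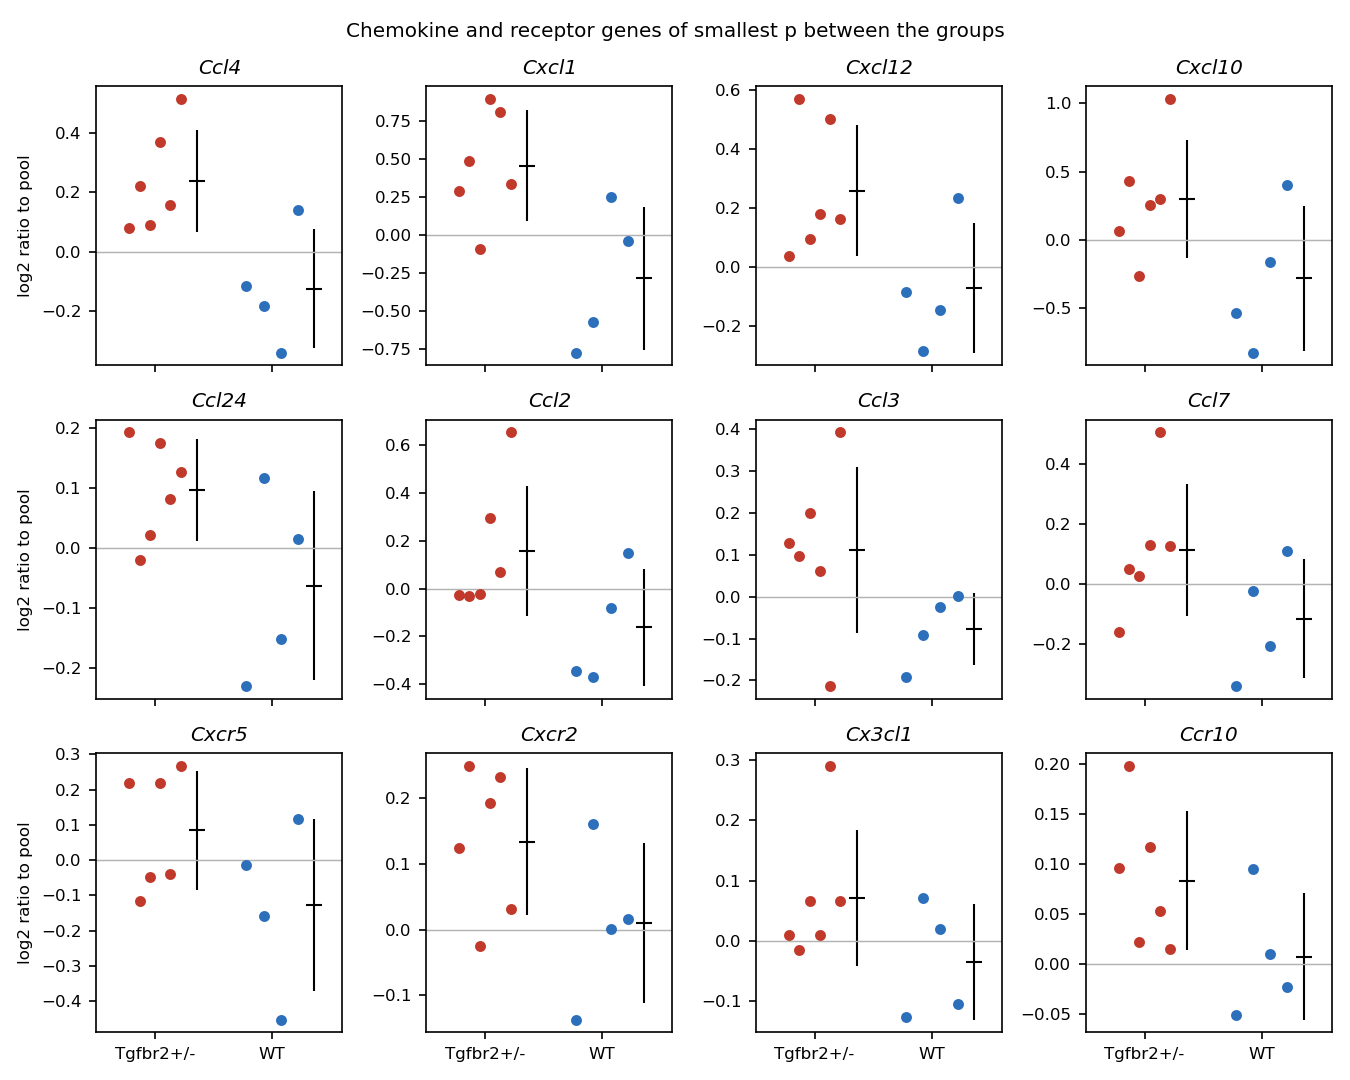
Log2 ratio to the pool in each library for the 12 chemokine and receptor genes of smallest p between the groups. Points are the 6 Tgfbr2+/- and 4 WT libraries, and bars give mean ± SD. In every panel the groups overlap, for Ccl4 through WT replicate 4 at 0.14.

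All 4 CXC ligands grouped as neutrophil attractants had positive differences, with a median of 0.09. With WT replicate 1 or Tgfbr2+/- replicate 5 turned 3 of 4 did, with medians of 0.05 and 0.09. Without Tgfbr2+/- replicate 6, 3 of 4 did too, with a median of 0.05. Cxcl1 (KC), whose promoter carries the NF-kappaB letters shown above, read 0.29, 0.49, -0.10, 0.90, 0.81 and 0.34 in Tgfbr2+/- livers, against -0.78, -0.58, 0.25 and -0.04 in WT livers. Its value exceeded every WT value in 5 of the 6 Tgfbr2+/- mice, and Tgfbr2+/- replicate 3 lay among the WT values. The difference was 0.74 ± 0.23, or 1.67-fold (unadjusted limma p = 0.00771, adjusted p = 0.704, exact permutation p = 0.0333). WT replicates 1 and 2 were low, and the WT spread (SD 0.47, n = 4) exceeded that of the heterozygous libraries (SD 0.37, n = 6). Turning WT replicate 1 gave a difference of 0.35, and turning Tgfbr2+/- replicate 5 gave 0.47, so that with either column turned the unadjusted limma p was above 0.05. With both turned it was 0.083.

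Cxcl2 (MIP-2), which lies beside Cxcl1 and holds GGGAATTTCC in its own window, differed by 0.10 ± 0.08 (95% interval -0.07 to 0.28), with heterozygous values of -0.08 to 0.15 and WT values of -0.23 to 0.21. Cxcl5 differed by 0.08 ± 0.09 and was carried by Tgfbr2+/- replicate 6 at 0.46, the other 5 lying between -0.09 and 0.08. Cxcl15, a chemokine known from mouse lung, differed by 0.02 ± 0.05. The receptor Cxcr2, carried by neutrophils, read 0.12, 0.25, -0.02, 0.19, 0.23 and 0.03 in Tgfbr2+/- livers, against -0.14, 0.16, 0.00 and 0.02 in WT livers. Its values ran through a narrow range, with a difference of 0.12 ± 0.07 (exact permutation p = 0.138), or 0.06 with WT replicate 1 turned and 0.05 with Tgfbr2+/- replicate 5 turned.

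The interferon-induced ligands of Cxcr3, the receptor of activated T cells and NK cells, differed in size. Cxcl10 (IP-10) read 0.07, 0.43, -0.27, 0.25, 0.30 and 1.03 in Tgfbr2+/- livers, against -0.54, -0.83, -0.17 and 0.40 in WT livers. Tgfbr2+/- replicate 6 was the highest and WT replicates 1 and 2 the lowest, while WT replicate 4 lay above 4 of the 6 heterozygous libraries. The difference was 0.59 ± 0.26, or 1.5-fold (unadjusted limma p = 0.0474, adjusted p = 0.9, exact permutation p = 0.100). It was 0.31 with WT replicate 1 turned and 0.49 with Tgfbr2+/- replicate 5 turned, where the unadjusted limma p was above 0.05 (0.292 and 0.116). With both turned it was 0.21. Cxcl9 (MIG), its neighbour, read -0.35, -0.09, -0.91, 0.15, -0.38 and 0.89 in Tgfbr2+/- livers, against -0.52, -0.43, 0.34 and -0.05 in WT livers. Both groups were spread on either side of the pool, and the difference was 0.05 ± 0.30 (95% interval -0.60 to 0.70), a sign that turned in 10 of 21 other settings. Both ligands were highest in Tgfbr2+/- replicate 6. Cxcl11, annotated in RefSeq as a transcribed pseudogene in the C57BL/6J assembly, ran within -0.06 and 0.10 in all 10 libraries, and Cxcr3 differed by 0.08 ± 0.08.

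Among the homeostatic and lymphoid ligands, 4 of 11 differences were positive and the median was -0.01. Cxcl12 (SDF-1), made by stromal and endothelial cells and the ligand of Cxcr4, read 0.04, 0.57, 0.10, 0.18, 0.50 and 0.16 in Tgfbr2+/- livers, against -0.09, -0.29, -0.15 and 0.23 in WT livers. All 6 heterozygous libraries were above the pool, replicates 2 and 5 the highest, and WT replicate 4 lay among them. The difference was 0.33 ± 0.13 (unadjusted limma p = 0.0245, adjusted p = 0.804, exact permutation p = 0.0619), or 0.29 with WT replicate 1 turned and 0.16 with Tgfbr2+/- replicate 5 turned. Its receptor Cxcr4 differed by 0.02 ± 0.06 (95% interval -0.12 to 0.15).

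Cxcl14, which attracts monocytes and dendritic cells, read -0.36, 0.29, 0.13, 1.29, -0.01 and 0.22 in Tgfbr2+/- livers, against -0.15, -0.35, 0.12 and 0.05 in WT livers. Its difference of 0.34 ± 0.25 (exact permutation p = 0.305) rested on Tgfbr2+/- replicate 4, without which it was 0.14. Turning WT replicate 1 gave 0.27 and turning Tgfbr2+/- replicate 5 gave 0.34. Cxcl13, the B cell attractant of lymphoid follicles, had the largest SD of the 49 genes (0.54), with -0.26, 0.14, -0.49, -1.02, -0.49 and 0.41 in Tgfbr2+/- livers, against -0.17, 0.88, -0.27 and -0.61 in WT livers. Each group held libraries on both sides of the pool, the WT group through replicate 2 alone, and the difference was -0.24 ± 0.31 (exact permutation p = 0.529). Without WT replicate 2 it was 0.07, and with WT replicate 1 or Tgfbr2+/- replicate 5 turned it was -0.33 or -0.08. The ligands of lymphocyte homing Ccl19 and Ccl21a differed by -0.01 ± 0.04 and -0.07 ± 0.13, and their receptor Ccr7 by 0.05 ± 0.06. The Ccl21a value depended on WT replicate 1, the lowest library at -0.43. Without it the difference was -0.22 and with it turned -0.28, both under an unadjusted limma p of 0.05. The remaining ligands of this role are Ccl17 and Ccl22, which attract T cells through Ccr4, Ccl20, the ligand of Ccr6, and Ccl25, Ccl27a and Ccl28, which guide lymphocytes to gut, skin and mucosa. Their differences ran from -0.11 for Ccl20 to 0.07 for Ccl17, and Ccr6 itself was at 0.04 ± 0.07. Another 2 probes that carry several Ccl21 symbols, and 1 that carries Cxcl10 with Art3, were not used.

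The membrane-bound chemokines Cx3cl1 (fractalkine) and Cxcl16 can act as adhesion molecules as well as attractants. Cx3cl1 read 0.01, -0.02, 0.07, 0.01, 0.29 and 0.07 in Tgfbr2+/- livers, against -0.13, 0.07, 0.02 and -0.10 in WT livers. Apart from Tgfbr2+/- replicate 5 every library lay close to the pool, and the difference was 0.11 ± 0.07 (exact permutation p = 0.190), or 0.04 with WT replicate 1 turned and 0.01 with Tgfbr2+/- replicate 5 turned. Cxcl16 differed by 0.09 ± 0.11, with 0.17 on 1 of its probes and 0.01 on the other. Their receptors Cx3cr1 and Cxcr6 differed by -0.03 ± 0.08 and -0.09 ± 0.10.

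Receptors varied less than ligands. The SD over the 10 libraries exceeded 0.2 for 13 of the 32 ligands and for 1 of the 17 receptors, against 14.0% of all genes, and the median SD was 0.17 for ligands and 0.13 for receptors. The receptor past 0.2 was Cxcr5, the follicular B cell receptor for Cxcl13, with 0.22, -0.11, -0.05, 0.22, -0.04 and 0.27 in Tgfbr2+/- livers, against -0.02, -0.16, -0.45 and 0.12 in WT livers. Its difference of 0.21 ± 0.12 (exact permutation p = 0.138) was 0.10 without WT replicate 3, the lowest library, and 0.20 or 0.23 with WT replicate 1 or Tgfbr2+/- replicate 5 turned. Ccr10, a receptor of skin-homing T cells and plasma cells, read 0.10, 0.20, 0.02, 0.12, 0.05 and 0.01 in Tgfbr2+/- livers, against -0.05, 0.09, 0.01 and -0.02 in WT livers, all close to the pool. It differed by 0.08 ± 0.05 (exact permutation p = 0.110), or 0.05 with WT replicate 1 turned and 0.06 with Tgfbr2+/- replicate 5 turned. No receptor had an unadjusted limma p under 0.05 in the reported fit or with either column turned. In other settings Cxcr6 (lower, without Tgfbr2+/- replicate 6), Cxcr2 (without Tgfbr2+/- replicate 3 or WT replicate 2), Cxcr5 (without WT replicate 4, and with the replicate number as a block) and Ccrl2 (with that block) did.

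Many of these receptors are encoded near Tgfbr2 itself. In the RefSeq gene table (GRCm38.p6) 10 of the 17 lie within 10 Mb of it on chromosome 9, from Ccr4 at a distance of 1.58 Mb to Ccr2 at 7.93 Mb. They include the monocyte receptors Ccr1, Ccr2 and Cx3cr1, the eosinophil receptor Ccr3, the T cell receptors Ccr4, Ccr8, Ccr9 and Cxcr6, and the receptor-like genes Ccr1l1 and Ccrl2. Their differences ran from -0.09 for Cxcr6 to 0.11 for Ccrl2, with a median of 0.01 and 5 of 10 positive. With WT replicate 1 turned 6 of 10 were positive and with Tgfbr2+/- replicate 5 turned 3 of 10. The 95% interval was -0.14 to 0.12 for Ccr2 and -0.14 to 0.11 for Ccr1. The other 7 receptors had positive differences in all 7 cases, with a median of 0.08. With WT replicate 1 turned 6 of 7 were positive with a median of 0.01, and without that library 6 of 7 with a median of 0.03. With Tgfbr2+/- replicate 5 turned 7 of 7 were positive with a median of 0.07. The difference between these sets of receptors was not tested.

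**Figure D3:**
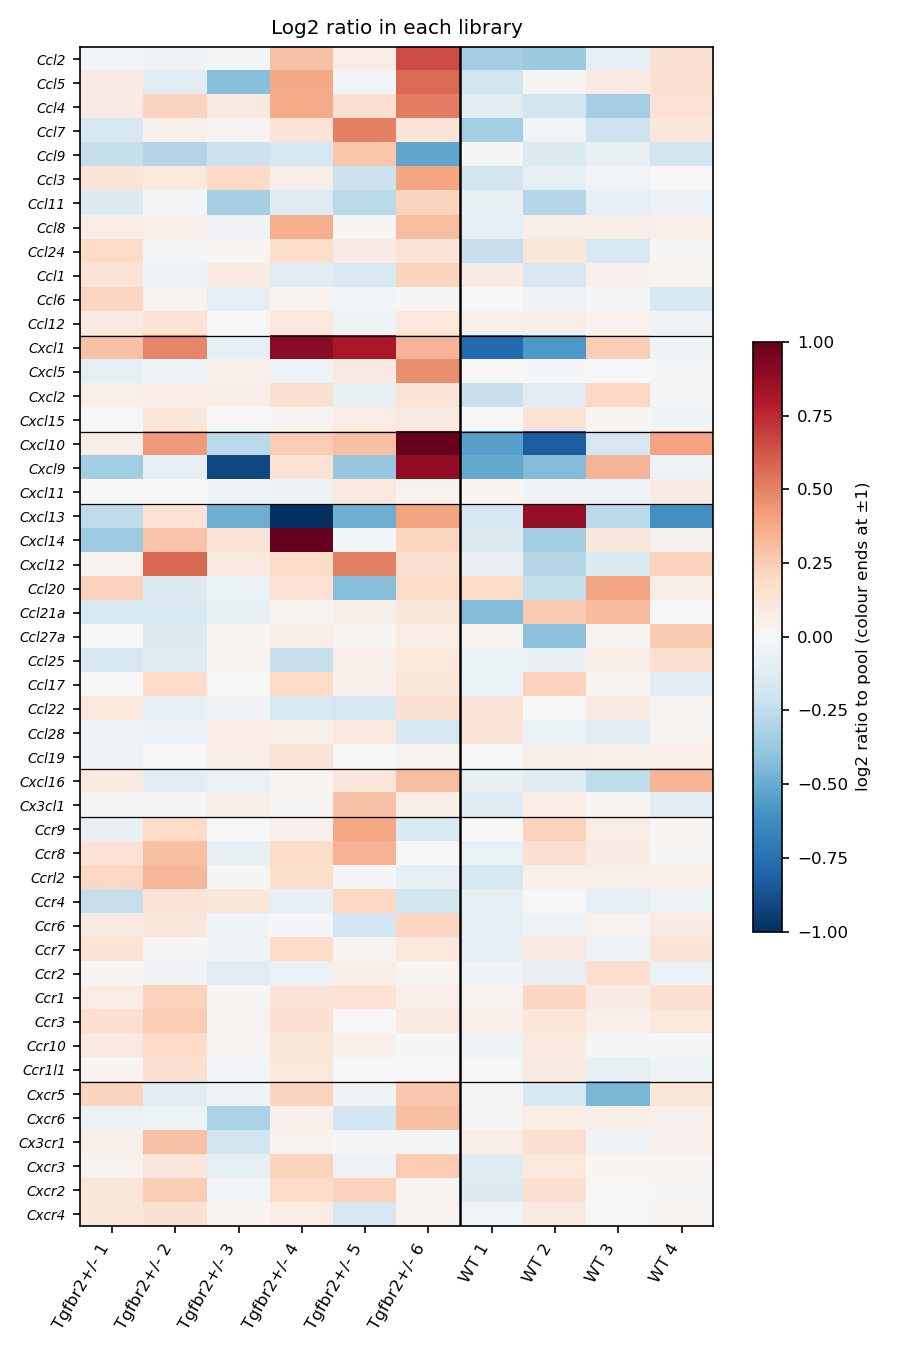
Log2 ratio to the pool of the 49 genes (rows, by role and within a role by SD) in the 6 Tgfbr2+/- and 4 WT libraries (columns). Colour ends at ±1, which Cxcl13 and Cxcl14 in Tgfbr2+/- replicate 4 and Cxcl10 in replicate 6 pass, and rows of receptors at the bottom are paler than those of ligands.

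Several libraries leaned to 1 side of the pool over the 49 genes. Above it lay 43 of the 49 genes in Tgfbr2+/- replicate 6, or 87.8% against 53.1% of all its genes, and 38 of 49 in Tgfbr2+/- replicate 4. In the other heterozygous libraries the count ran from 21 in replicate 3 to 32 in replicate 1, and replicate 5 had 30, or 19 if turned. Among WT libraries it was 11 of 49 in replicate 1, or 22.4% against 51.4% of all its genes, and 37 of 49 (75.5% against 48.4%) with that column turned, 23 in replicate 2, 29 in replicate 3 and 33 in replicate 4. The groups overlapped, since WT replicate 4 had more genes above the pool than 4 of the 6 heterozygous libraries. Tgfbr2+/- replicate 6 was the highest library for 14 of the 49 genes, or 28.6% against 15.3% of all genes. As deposited, WT replicate 1 was the lowest for 12, or 24.5% against 11.6% of all genes. The count of positive differences was 33 of 49 with either unsettled column turned, 31 without Tgfbr2+/- replicate 6 and 34 without WT replicate 1. The median difference ran from 0.04 to 0.07 when 1 library was left out.

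**Figure D4:**
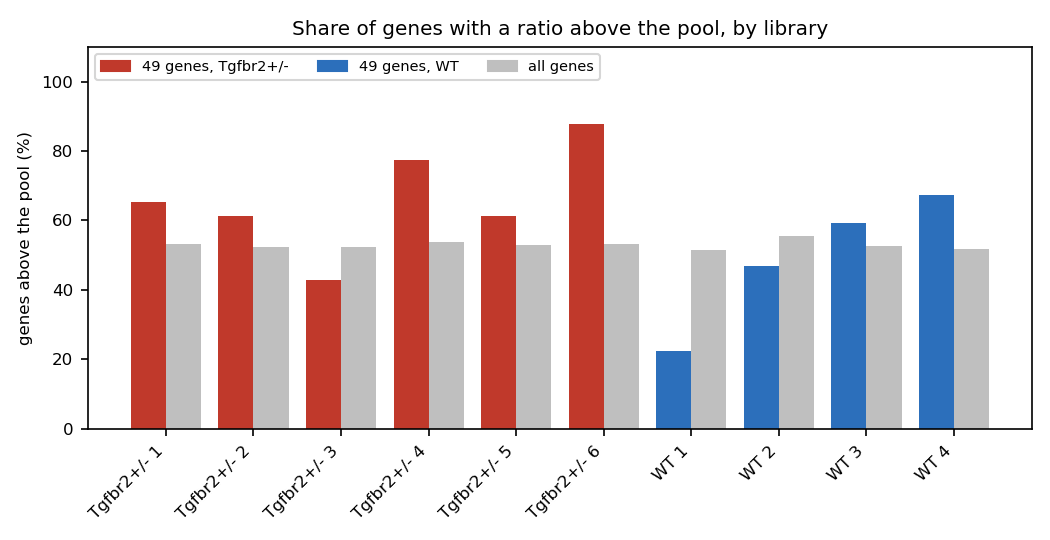
Share of genes with a ratio above the pool in each library, in percent, for the 49 chemokine and receptor genes (red, Tgfbr2+/-, and blue, WT) and for all genes (grey). The members' share ranges from 42.9% to 87.8% in Tgfbr2+/- and from 22.4% to 67.3% in WT libraries, while that of all genes stays between 51.4% and 55.6%. With their signs turned, the members' share is 38.8% in Tgfbr2+/- replicate 5 and 75.5% in WT replicate 1.

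Set against the pool, the Tgfbr2+/- mean of 10 of the 49 genes passed an unadjusted limma p of 0.05, or 20.4% against 18.3% of all genes, 9 of them above the pool against 11.1% of all genes, and 1, Ccl9, below it against 7.21%. None passed an adjusted p of 0.05, which 0.0122% of all genes did by limma. The smallest p was that of Ccl4, with a mean of 0.24 ± 0.17 (SD, n = 6; limma adjusted p = 0.172). In WT livers 1 of 49 passed the unadjusted p, or 2.04% against 4.14% of all genes, and 0 the adjusted one by limma, where 0% of all genes did. That gene was Ccr1, at 0.12 ± 0.08 (SD, n = 4) in WT and 0.11 ± 0.08 (SD, n = 6) in Tgfbr2+/- livers, above the pool in all 10 libraries. Ccr3 lay above the pool in all 10 libraries too, at 0.12 ± 0.09 in Tgfbr2+/- and 0.08 ± 0.04 in WT livers, and Ccl11 (eotaxin-1) below it in 9, at -0.11 ± 0.20 and -0.13 ± 0.11. With a column turned in sign the heterozygous count was 10 (WT replicate 1) or 8 (Tgfbr2+/- replicate 5). The share of all genes against the pool in these settings is not given here, so these counts have no background beside them.

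Other genes of the chemokine system that the symbol rule leaves out differed little. Of 12 measured, 9 had positive differences, with a median of 0.04, and 1 had an unadjusted limma p under 0.05, as did 5.54% of all genes. This was Xcl1, lymphotactin, at 0.22 ± 0.10 (limma adjusted p = 0.9), and the next were Cmklr1 (-0.13 ± 0.09), the chemerin receptor, the scavenging receptor Ackr4 (0.10 ± 0.07) and the platelet chemokine Pf4 (0.10 ± 0.09). The scavenging receptors Ackr1, Ackr2 and Ackr3 lay at -0.05, 0.01 and 0.10. With WT replicate 1 or Tgfbr2+/- replicate 5 turned, 0 of the 12 were higher under that p, and 0 or 1 lower. Downstream genes of chemokine receptors were positive for 17 of 26, with 2 at an unadjusted limma p under 0.05, against 5.54% of all genes. These were Rgs2 (0.30 ± 0.09), a brake on G protein signals, and the leukocyte GTPase Rac2 (0.33 ± 0.11), and neither passed adjustment (adjusted p = 0.637 and 0.732). Vav1, which activates Rac, was at 0.08 ± 0.04 and the G protein subunit Gnai2 at 0.08 ± 0.04. With WT replicate 1 or Tgfbr2+/- replicate 5 turned, 17 of these 26 were positive in each case and 0 or 4 were at an unadjusted limma p under 0.05.

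Inflammatory cytokines and NF-kappaB targets were positive for 17 of 27, with a median of 0.03. Relb (0.48 ± 0.17), an NF-kappaB subunit, and Il1b (0.20 ± 0.08) had an unadjusted limma p under 0.05 (0.0150 and 0.0359), and Il10 (-0.12 ± 0.06) and Tnf (0.11 ± 0.06) followed. Under a turned WT replicate 1 or Tgfbr2+/- replicate 5, 16 and 13 of 27 were positive and 0 were at that p. Genes of the interferon-gamma response were positive for 13 of 14, with a median of 0.17. The GTPases Gbp3 (0.35 ± 0.09) and Iigp1 (0.24 ± 0.10) and the peptide transporter Tap1 (0.16 ± 0.07) were under an unadjusted limma p of 0.05, and Socs1 was at 0.25 ± 0.12. The list's mean was highest in Tgfbr2+/- replicate 6 (0.29), where Cxcl9 and Cxcl10 were also highest. It was lowest in Tgfbr2+/- replicate 3 (-0.27), where Cxcl9 was lowest but Cxcl10 was not. Cxcl10 was lowest in WT replicate 2 (-0.83), where the list's mean was -0.12. With WT replicate 1 or Tgfbr2+/- replicate 5 turned, 13 and 12 of 14 were positive, 1 and 3 were under an unadjusted limma p of 0.05 and the medians were 0.10 and 0.14. Leukocyte adhesion genes were positive for 9 of 12, as they were with either column turned. The integrin Itgal (0.41 ± 0.08), Icam2 (0.24 ± 0.09) and Jam2 (0.23 ± 0.10) were under an unadjusted limma p of 0.05, and Itgb2 was at 0.08 ± 0.04. With WT replicate 1 or Tgfbr2+/- replicate 5 turned 2 and 1 were under that p. The median of 0.09 became 0.05 in each case. None of the genes of these lists passed the adjusted limma p over all genes. Among all genes 5.54% were under an unadjusted limma p of 0.05.

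Markers of several leukocytes also had positive differences. Of 17 Kupffer cell and macrophage markers 15 were positive and 12 under an unadjusted limma p of 0.05, as were 5.54% of all genes. The 4 of smallest p were Cd5l (0.67 ± 0.10), Vsig4 (0.48 ± 0.08), Folr2 (0.61 ± 0.10) and Tyrobp (0.43 ± 0.07). No marker of any cell type passed adjustment over all genes, the smallest adjusted limma p being 0.115, for Cd5l. The mean of the 17 macrophage markers ran from 0.01 to 0.24 in Tgfbr2+/- and from -0.23 to -0.12 in WT libraries. Neutrophil markers were positive for 9 of 11, with a median of 0.06, led by S100a9 (0.79 ± 0.18) and S100a8 (0.33 ± 0.10). Camp (-0.13) and Mmp9 (-0.01) were negative. Of the 11, 3 were under an unadjusted limma p of 0.05. Turning WT replicate 1 or Tgfbr2+/- replicate 5 left 8 and 7 positive and 2 and 0 under that p. The mean of the list ran from 0.02 to 0.26 in Tgfbr2+/- and from -0.14 to 0.03 in WT libraries. Of 7 monocyte markers 6 were positive, among them Plac8 at 0.51 ± 0.12, Ly6c1 at 0.26 ± 0.10 and Itgal, counted above, with means of -0.06 to 0.17 in Tgfbr2+/- and -0.13 to -0.07 in WT libraries. The library with the highest macrophage mean was Tgfbr2+/- replicate 6 and that with the lowest WT replicate 4, which was the WT library with the highest Ccl4, Cxcl10, Cxcl12 and Ccl2. Turning WT replicate 1 or Tgfbr2+/- replicate 5 left 17 and 14 of 17 macrophage markers positive. In these settings 8 and 12 were under an unadjusted limma p of 0.05, as were 3.56% and 3.11% of all genes. The macrophage mean would be -0.16 in a turned Tgfbr2+/- replicate 5 and 0.15 in a turned WT replicate 1, and the groups would overlap. Turned likewise, these libraries would have neutrophil means of -0.26 and 0.14 and monocyte means of -0.17 and 0.10.

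Markers of the remaining cell types follow. T and NK cell markers were positive for 9 of 16 with a median of 0.02, and dendritic cell markers for 7 of 11. Clec10a at 0.36 ± 0.11, Siglech at 0.32 ± 0.12 and Itgae at -0.16 ± 0.07 were under an unadjusted limma p of 0.05, as were 5.54% of all genes. B and plasma cell markers were positive for 8 of 10, with Cd22 at 0.29 ± 0.13 under that p too. With WT replicate 1 turned 0 dendritic and 0 B cell markers were under it, and with Tgfbr2+/- replicate 5 turned 1 of each. Sinusoidal endothelial markers were positive for 6 of 12, with Fcgr2b at 0.36 ± 0.11, Clec4g at 0.27 ± 0.08 and, on the negative side, Stab2 at -0.08 ± 0.04. Differences were positive for 6 of 11 stellate cell markers, 5 of 10 hepatocyte markers and 3 of 7 cholangiocyte markers, against 52.6% of all genes. The part that any of these cell types has in the chemokine differences was not tested.

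**Figure D5:**
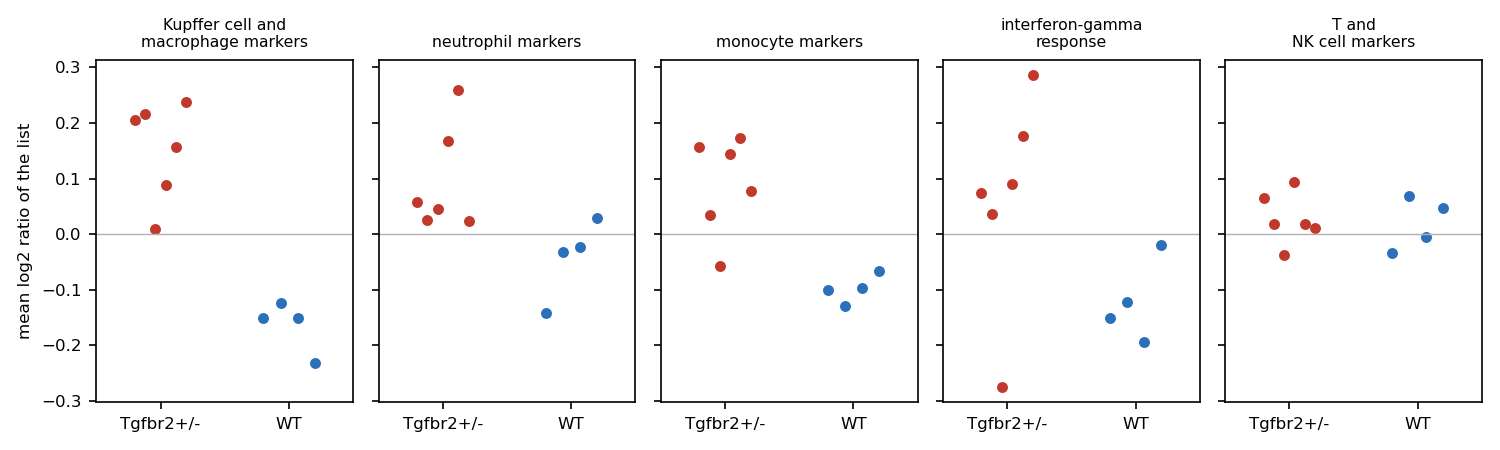
Mean log2 ratio of 5 gene lists in each library, Tgfbr2+/- (red) left of WT (blue). The macrophage markers lie between 0.01 and 0.24 in Tgfbr2+/- and between -0.23 and -0.12 in WT libraries, but turned in sign Tgfbr2+/- replicate 5 would lie at -0.16 and WT replicate 1 at 0.15. The T and NK cell markers overlap.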

How the data were processed

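Each deposited column holds 1 library's log10 ratios against the pool, made by the authors. Per the labels' protocols, extraction used RNeasy spin columns and labelling an aminoallyl amplification kit. The design text says that dyes were swapped. Scanner software, background correction, normalization and how dye swaps were joined are not given here. The base was inferred from 8 values at exactly 2 or -2, a limit of 100-fold if the base is 10. Column medians of the deposited log10 values lay between 0.0013 and 0.0047, so columns are centred, whereas scale and direction stay unknown from the labels. Values were multiplied by 3.32 to log2 and probes of a symbol averaged. Of all probes 17726 carry 1 symbol in the platform annotation, 50 several and 5662 none here.

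All genes were fitted with limma 3.58.1 (lmFit, eBayes, two-sided) in R 4.3.3, Benjamini-Hochberg adjusted over all 16383. The fit against the pool leaves out the pool's own spread. Single genes were compared by an exact two-sided permutation test over 210 splits, whose smallest p is 0.0048. Promoter windows came from RefSeq tables. The fit was also tested on simulated data, and the outcome is not reported here. P-values measure the spread between these libraries, 1 per mouse, and their number limits the precision.

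The genes and lists were chosen with earlier results of these data known, and roles were assigned after the values were seen. Every gene is counted. Values per library are given by rule for the 12 genes of smallest p, the 5 of largest SD and, against the pool, up to 4 per group. Ccl5, Cxcl2 and Cxcl5 are given in more detail after their values were seen. From other lists up to 4 genes of smallest p are named, with Ackr1, Ackr2 and Ackr3 added. Replicate numbers occur in both groups, but deviations of same-numbered libraries correlated at 0.01 to 0.30, so the numbers were not taken as pairs.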

Additional observations from a re-analysis of the deposited data

Results flagged for a closer look

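Of 98 groups of libraries (49 genes in each genotype), 7 held a library farther from the rest than Dixon's 95% limit, or 7.14% where chance gives about 5%. In Tgfbr2+/- livers these were Cxcl5 at 0.46 in replicate 6, against -0.09 to 0.08 in the other 5, Cx3cl1 at 0.29 in replicate 5, against -0.02 to 0.07, and Ccl27a at -0.14 in replicate 2, against 0.00 to 0.07. In WT livers they were Ccrl2 at -0.16 and Ccl8 at -0.089 in replicate 1, against 0.05 to 0.05 and 0.05 to 0.07 in the other 3, Ccl11 at -0.29 in replicate 2, against -0.08 to -0.06, and Ccl6 at -0.16 in replicate 4, against -0.03 to -0.01. The reason for these values was not tested.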

How the results depend on the processing

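Results were recomputed under 21 other settings, 2 of them chosen after seeing the data (both unsettled columns left out, and both turned). None of the 49 genes passed the adjusted limma p between the groups in any of them, with 2 to 9 at an unadjusted p under 0.05. That count ran from 3 to 9 when 1 library was left out, was 8 (6 higher, 2 lower) with the replicate number as a block, where 9.27% of all genes passed, and 2 (Ccl21a and Ccl9, both lower) with both unsettled columns turned, where 3.15% did. Of the 8 under the block, 2 were among the 4 reported, and 2 of 4 WT libraries correlated best with the heterozygous library of their own number. The count of genes whose groups do not overlap ran from 0 to 3 when 1 library was left out and was 1 with Tgfbr2+/- replicate 5 turned or with both unsettled libraries left out. Against the pool the heterozygous count was 6 of 36 once the 50% of genes with the smaller SD were left out, with the share of all genes not given here. The block gives no value against the pool.

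Among the genes given by library or against the pool, signs turned as follows. With both unsettled columns turned Ccl7 was at -0.11, Cxcr2 at -0.022, Cx3cl1 at -0.054 and Cxcl9 at -0.083. Cxcl9 was at -0.14 with the replicate block, -0.21 with WT replicate 1 turned, -0.017 with quantile normalization, -0.12 with array weights and -0.016 with both unsettled libraries left out. Ccl11 was at -0.027 with the replicate block, -0.020 with WT replicate 1 turned and -0.026 with array weights. Ccl5 kept its sign in 15 of 21 settings. It was at -0.011 without WT replicate 1, -0.035 with that column turned and -0.026 with both unsettled columns turned. Leaving out 1 library gave ranges of -0.43 to 0.067 for Cxcl13, -0.046 to 0.017 for Ccr1, -0.15 to 0.22 for Cxcl9 and -0.051 to 0.059 for Ccl11. The cause was not tested. Of all 49 genes 22 kept their sign in every setting that fitted them, and the others did not. The files give no signal over background, so what dim probes limit cannot be stated.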
